A study of Mus musculus with 8 samples.

Results

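Fos, Fosb, Fosl2, Jun, Junb, Jund and Atf3 encode subunits of activator protein 1 (AP-1), and their transcripts were followed here in group 2 innate lymphoid cells (ILC2) of the mouse thymus. These 7 genes, of 10913 listed, were chosen by gene symbol, and they were selected on results that included their difference between the genotypes, so that difference is given as a description and carries no test of its own. The 8 libraries came from ILC2 sorted from enzymatically dissociated thymus of young, untreated male mice, 4 from Il25 knockout (KO) mice and 4 from wild-type (WT) mice matched to them in age. The comparison asks which transcripts differ in thymic ILC2 of mice without IL-25, a cytokine that acts on ILC2. The labels give neither the knockout allele nor whether each library came from a separate animal, so a p-value measures the spread between these libraries. Il25 was not analysed here, and its transcript therefore gave no check of the genotype.

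AP-1 is a dimer of proteins with a basic leucine zipper (bZIP), the segment through which the subunits pair and touch DNA. Jun proteins pair with one another or with Fos proteins, whereas Fos proteins need a partner from another family, and ATF3, of the ATF/CREB branch, can pair with Jun proteins. In lymphocytes AP-1 acts with NFAT downstream of antigen and cytokine receptors at cytokine genes. Fos, Fosb, Jun, Junb and Atf3 are immediate early genes, whose short-lived transcripts appear soon after MAP kinases are activated by a stimulus, by stress or by the dissociation of tissue.

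Each library counted 3′ ends of polyadenylated RNA with unique molecular identifiers (UMIs), so a count does not grow with transcript length. Levels of different genes were compared on that basis, without a correction for how fully the reads of each gene were counted. Depth ran from 1915365 to 3250718 UMIs per library, and levels are CPM, UMI counts scaled to a common library size with TMM factors. Several ILC2 markers were present. Il17rb, a subunit of the IL-25 receptor, was at 178 CPM in KO libraries and 154 CPM in WT libraries. Gata3, the factor that specifies ILC2, was at 70.9 ± 13.3 against 60.6 ± 7.85 CPM (KO and WT, SD, n = 4 each). The summed level of 11 ILC2 markers was 1053 to 1288 CPM in KO libraries and 1071 to 1244 CPM in WT libraries. Tcf7 was the largest part of that sum, at 547 CPM in KO libraries and 625 CPM in WT libraries. Icos, Il13 and Il4 were too low to be tested. They were at 1.61, 3.67 and 1.58 CPM in KO libraries and at 1.77, 4.36 and 0.731 CPM in WT libraries. Transcripts of thymocytes and T cells were present too, at a summed 4823 to 5334 CPM in KO libraries and 4445 to 5780 CPM in WT libraries over the 14 listed genes of 17, led by Dntt, the terminal transferase of developing lymphocytes. The counts are of bulk samples, where fewer cells of a type and less RNA per cell cannot be told apart.

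Jun, a core partner in AP-1 dimers, was the highest of the 7 transcripts, with a mean level above 98.7% of all listed genes. Jun stood at 1276, 1046, 1363 and 1236 CPM in KO libraries 1 to 4 and at 822, 502, 554 and 706 CPM in WT libraries 1 to 4. No WT library reached the lowest KO library, and the lowest values were in WT 2 and WT 3. The means were 1230 ± 134 CPM in KO libraries and 646 ± 146 CPM in WT libraries (SD, n = 4 each), a 1.90-fold difference, or 0.93 ± 0.14 (SE) on the log2 scale of edgeR's quasi-likelihood fit. Jun is a gene of a single exon on the minus strand of chromosome 4, 95049034 to 95052222 in the GENCODE M21 annotation of GRCm38.

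Junb, which in many settings restrains Jun and in helper T cells takes part in the expression of type 2 cytokines, had 1052, 819, 756 and 762 CPM in KO 1 to 4. The WT libraries held 595, 461, 512 and 595 CPM. All 4 KO libraries were above all 4 WT libraries, and KO 1 stood highest. Means of 847 ± 140 CPM and 541 ± 66.2 CPM (SD, n = 4 each) gave a 1.57-fold difference, 0.65 ± 0.13 (SE) on the log2 scale. Junb has a single exon on the minus strand of chromosome 8, from 84974484 to 84978718, and its annotated 3′ end overlaps that of Prdx2, a peroxiredoxin gene on the other strand. No source used here gives the strand setting of the counting, so reads of the pair might be shared. Prdx2 itself had 740 ± 46.5 CPM in KO libraries and 767 ± 33.6 CPM in WT libraries (SD, n = 4 each), a log2 difference of -0.05 ± 0.10 (SE).

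Jund, the Jun family member known for steady expression in resting cells, was measured at 580, 473, 441 and 488 CPM in KO 1 to 4. In WT 1 to 4 it was at 451, 338, 307 and 357 CPM. The groups overlapped by a small margin, since KO 3 lay below WT 1. The means were 495 ± 59.8 and 363 ± 62.1 CPM (SD, n = 4 each), 1.37-fold apart, and the log2 difference was 0.45 ± 0.13 (SE). Jun and Jund each also overlap an antisense gene, and Atf3 a small RNA gene on the other strand, so the same doubt about strand holds for them.

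Fos, the main partner of Jun after acute stimulation, was counted at 613, 455, 546 and 337 CPM in KO 1 to 4. The WT values were 313, 243, 220 and 313 CPM. The groups did not overlap, although KO 4 exceeded the highest WT library by a narrow margin. Fos averaged 488 ± 119 CPM in KO libraries and 273 ± 48.0 CPM in WT libraries (SD, n = 4 each), a 1.79-fold difference and 0.84 ± 0.16 (SE) on the log2 scale. It has 4 exons on the plus strand of chromosome 12, 85473890 to 85477273, with no overlapping gene in the annotation.

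Fosb, an inducible Fos family member, was far lower, at 81.6, 47.3, 69.9 and 54.0 CPM in KO 1 to 4. The WT libraries held 49.5, 41.9, 35.7 and 52.7 CPM. KO 1 and KO 3 were the highest and KO 2 fell within the WT range. Its means were 63.2 ± 15.5 and 44.9 ± 7.67 CPM (SD, n = 4 each), with a log2 difference of 0.50 ± 0.16 (SE). Fosl2 encodes FRA-2, a Fos family protein without the strong transactivation domain of FOS and FOSB, and was at 79.4, 80.5, 57.9 and 60.7 CPM in KO 1 to 4. Its WT values were 49.0, 99.2, 84.2 and 84.2 CPM. It was the only one of the 7 with a mean lower in KO, at 69.6 ± 12 against 79.2 ± 21.3 CPM (SD, n = 4 each), and the groups overlapped because WT 1 was the lowest of all libraries. The log2 difference was -0.20 ± 0.17 (SE).

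Atf3, a stress-induced factor that often acts as a repressor, was at 223, 180, 165 and 228 CPM in KO 1 to 4. The WT libraries held 142, 107, 143 and 193 CPM. WT 4 exceeded KO 2 and KO 3, so the groups overlapped. The means were 199 ± 31.3 and 146 ± 35.2 CPM (SD, n = 4 each), 1.36-fold apart, with a log2 difference of 0.44 ± 0.15 (SE).

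**Figure D1:**
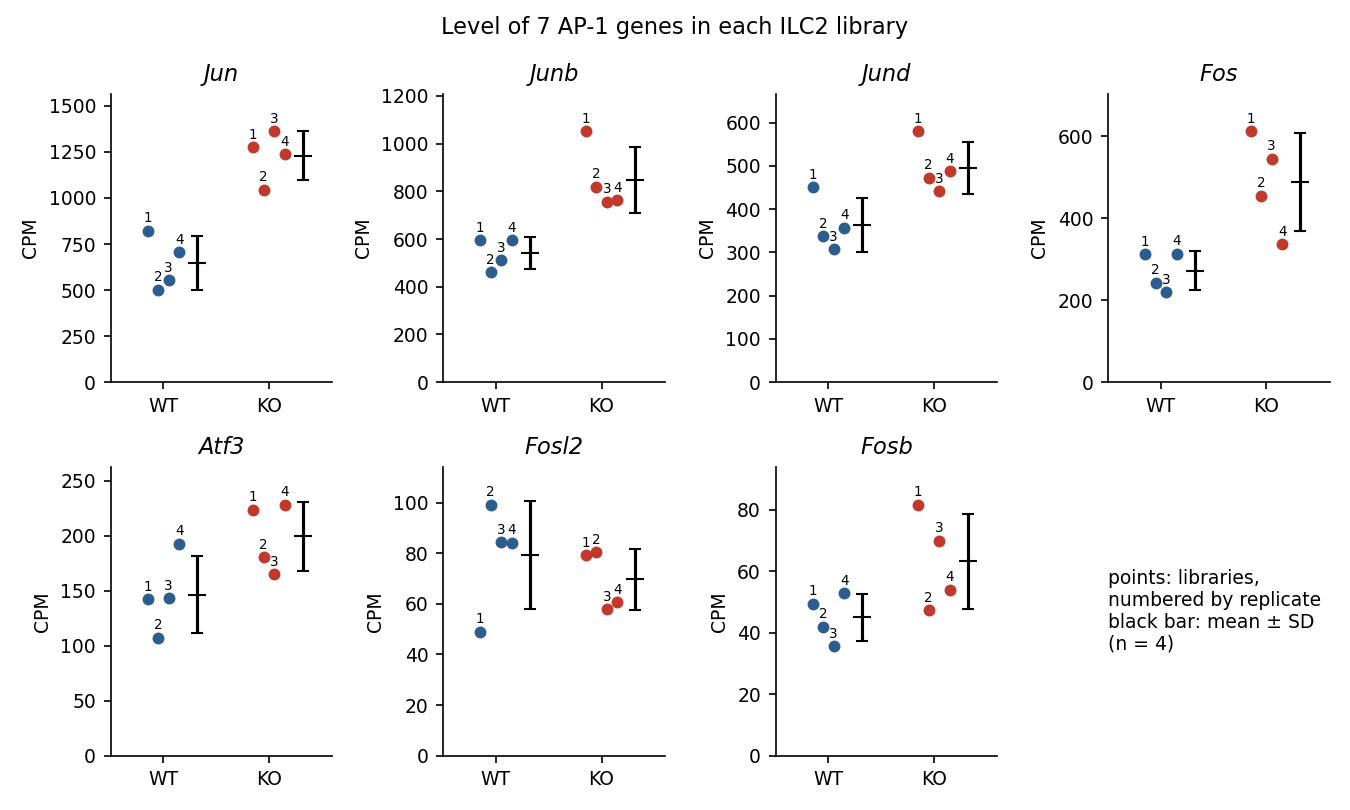
Level of each AP-1 transcript in the 8 libraries, in CPM, with KO and WT libraries as points labelled by replicate number and black bars for the mean ± SD of each group (n = 4). Jun, Junb and Fos are the genes whose KO points all lie above their WT points, and Fosl2 is the gene whose KO mean lies below its WT mean.

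All 7 genes passed the filter on low counts. Jun, Fos and Junb had an adjusted p under 0.05, 3 of 7, in the fit over 9016 tested genes, of which 0.177% were called higher in KO. The same 3 had every KO library above every WT library, which held for 2.92% of all tested genes. Nothing is read from either count, because the genes were selected on this contrast. The weakest of the called members was Junb at a log2 difference of 0.65, and Fosb at 0.50 and Jund at 0.45 were the nearest members outside. Leaving out 1 library changed which members were called: Jun stayed called in 7 of 8 such fits and was lost without WT 2. Junb stayed called in 4 and was lost without KO 1, WT 2, WT 3 or WT 4, and Fos in 3, lost without KO 1, KO 3, WT 2, WT 3 or WT 4. The log2 difference in those fits ran from 0.83 to 1.07 for Jun, from 0.71 to 0.98 for Fos and from 0.53 to 0.70 for Junb, and no member changed sign.

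Starts of the 3 genes with separated groups are shown because Fos and Jun promoters carry well-known elements through which AP-1 and CREB proteins act on their own genes. The RefSeq windows (GRCm38.p6) run from 250 bases before to 50 after the annotated start, 5′ to 3′ on the gene's strand, at chr12:85473640-85473939 (plus) for Fos, chr4:95052173-95052472 (minus) for Jun and chr8:84978699-84978998 (minus) for Junb. Capitals mark TGACGT and TATAAA in Fos, TGACATCA in Jun and TATAAA in Junb.
Fos: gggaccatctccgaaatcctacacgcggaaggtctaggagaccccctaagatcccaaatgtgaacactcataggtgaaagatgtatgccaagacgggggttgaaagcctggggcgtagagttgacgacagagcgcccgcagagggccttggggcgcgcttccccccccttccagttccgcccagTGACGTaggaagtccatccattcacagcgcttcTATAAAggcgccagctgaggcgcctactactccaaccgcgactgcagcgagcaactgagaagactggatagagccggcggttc
Jun: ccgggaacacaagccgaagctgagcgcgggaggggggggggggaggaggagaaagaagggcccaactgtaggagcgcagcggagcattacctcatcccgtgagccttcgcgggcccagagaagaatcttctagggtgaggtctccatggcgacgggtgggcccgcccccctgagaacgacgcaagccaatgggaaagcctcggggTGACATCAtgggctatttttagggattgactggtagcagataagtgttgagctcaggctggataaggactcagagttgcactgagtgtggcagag
Junb: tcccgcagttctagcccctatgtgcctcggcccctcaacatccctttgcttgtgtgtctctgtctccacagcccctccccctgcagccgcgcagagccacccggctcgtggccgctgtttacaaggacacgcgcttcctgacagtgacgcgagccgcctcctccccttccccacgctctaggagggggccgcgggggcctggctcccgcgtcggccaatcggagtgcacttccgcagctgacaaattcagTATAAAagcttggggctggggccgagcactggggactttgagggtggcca
Counting the start base as 0, TGACGT, the core of a CREB site, lay at -66 to -61 in Fos, and TATAAA, the core of a TATA box, at -33 to -28. In Jun the letters TGACATCA, which match TGACNTCA, lay at -45 to -38. In Junb TATAAA lay at 0 to 5 of the RefSeq start, and the GENCODE start is 30 bases further downstream. The RefSeq and GENCODE starts are the same for Fos and Jun and 6 bases apart for Fosb, but 671 bases apart for Fosl2, 1210 for Jund, whose window lies wholly before the GENCODE gene, and 34706 for Atf3. The motif counts over 7 windows include these 3, which describe the RefSeq start alone.

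On either strand, TGACNTCA occurred in 1 of the 7 member windows and in 8.83% of 32851 RefSeq promoter windows of the same length. TGACGT, which overlaps TGACNTCA where N is G, occurred in 2 of 7, Fos and Atf3, against 7.51% of all windows. TATAAA was in 2 of 7 against 13.6%, the AP-1 site TGANTCA in 0 of 7 against 7.81%, and the CArG box, the site of serum response factor, in 0 of 7 against 1.63%. A match describes the letters of a window and does not show binding, and a window without a match says nothing about the factor.

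By mean level over all 8 libraries the order was Jun, Junb, Jund, Fos, Atf3, Fosl2 and Fosb. Jun exceeded Junb in 8 of 8 libraries, 1.31-fold on average, with a log2 ratio of 0.39 ± 0.27 (SD, n = 8). Junb exceeded Jund 1.6-fold, Fos exceeded Atf3 2.13-fold and Atf3 exceeded Fosl2 2.31-fold, each in 8 of 8 libraries. For these 4 neighbouring pairs the two-sided exact sign-flip permutation test over libraries gave p = 0.00781, the smallest it can give, and 0.0117 after Benjamini-Hochberg adjustment over 6 pairs. The test covers the spread between libraries only. The doubt about strand at Jun, Junb, Jund and Atf3 applies to these ratios and to the shares below. The order was not separated between Jund and Fos, where Jund was higher in 6 of 8 libraries with a log2 ratio of 0.23 ± 0.32 (SD, n = 8; exact p = 0.0859, adjusted 0.0938). Nor was it separated between Fosl2 and Fosb, where Fosl2 was higher in 5 of 8 with a log2 ratio of 0.47 ± 0.59 (SD, n = 8; exact p = 0.0938, adjusted 0.0938).

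**Figure D2:**
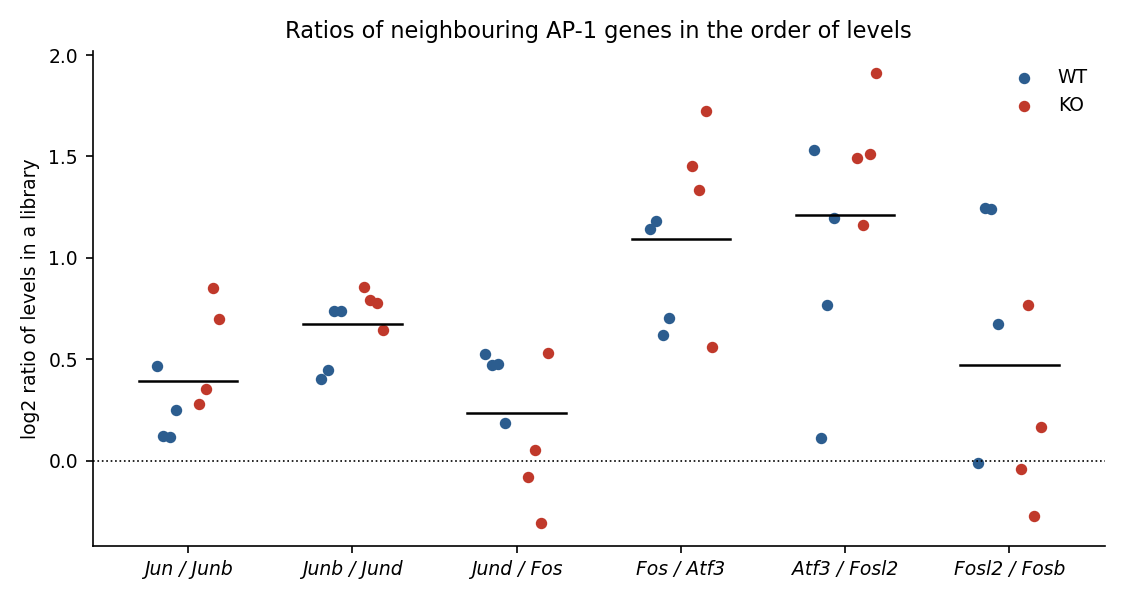
Log2 ratio of each member to the next lower one in the 8 libraries, KO and WT points with a bar at the mean over all 8. All points lie above 0 for Jun over Junb, Junb over Jund, Fos over Atf3 and Atf3 over Fosl2, and points fall on both sides of 0 for Jund over Fos and Fosl2 over Fosb.

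The pairs without a fixed order can be read by genotype. Jund was higher than Fos in 4 of 4 WT libraries, by 0.42 ± 0.15 on the log2 scale (SD, n = 4), and in 2 of 4 KO libraries, where the log2 ratio was 0.05 ± 0.36 (SD, n = 4). Fosl2 was higher than Fosb in 3 of 4 WT libraries and in 2 of 4 KO libraries. These group values belong to the contrast that chose the genes and are given without a test.

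The 7 transcripts together held 3906, 3101, 3398 and 3165 CPM in KO 1 to 4 and 2422, 1791, 1856 and 2301 CPM in WT 1 to 4. Jun family transcripts (Jun, Junb and Jund) made up most of it, with 2573 ± 242 CPM in KO libraries and 1550 ± 263 CPM in WT libraries (SD, n = 4 each), and Fos family transcripts (Fos, Fosb and Fosl2) came to 620.5 ± 137 and 397 ± 46.3 CPM. For every 100 Jun family UMIs there were 24.0 ± 3.96 Fos family UMIs in KO and 25.9 ± 3.22 in WT (SD, n = 4 each), with overlapping ranges of 18.2 to 26.6 and 22 to 29.5. The Jun family sum ran from 2338 to 2908 CPM in KO and from 1300 to 1869 CPM in WT, without overlap. The Fos family sum ran from 451.6 to 773.7 CPM in KO and from 340.4 to 450.4 CPM in WT, and the margin between KO 4 and WT 4 was within counting error.

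Shares within the pool differed more, and are given without a test. Jun held 36.4 ± 3.74% of the members' UMIs in KO and 30.6 ± 2.48% in WT (SD, n = 4 each), with overlap between 32.7% and 34%. Jund held 14.6 ± 1.12% and 17.4 ± 1.62%, and its share was lower in all 4 KO libraries (13 to 15.4%) than in all 4 WT libraries (15.5 to 18.8%). The gap between the nearest libraries, KO 4 and WT 4, was small beside the counting error, since 95% Wilson intervals of the shares reached at most 1.31 percentage points to either side and cover counting error only. For every 100 Jun UMIs there were 45.5, 45.2, 32.3 and 39.4 Jund UMIs in KO and 54.8, 67.2, 55.4 and 50.5 in WT, again without overlap.

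Junb held 24.9 ± 2.18% of the pool in KO and 25.9 ± 1.23% in WT, and Fos 14.3 ± 2.48% and 13 ± 0.811% (SD, n = 4 each), both with overlapping ranges. Atf3 held 5.90 ± 0.972% and 6.98 ± 1.26%, and Fosb 1.84 ± 0.275% and 2.15 ± 0.199%. Fosl2 differed most for its size, with 2.03, 2.60, 1.70 and 1.92% in KO and 2.02, 5.54, 4.54 and 3.66% in WT. WT 1 lay among the KO libraries and the other 3 WT libraries above all of them.
Against Fos, the inducible member of its family, Fosl2 counted 14.8 ± 3.63 UMIs per 100 in KO and 30.4 ± 11.5 in WT (SD, n = 4 each).

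**Figure D3:**
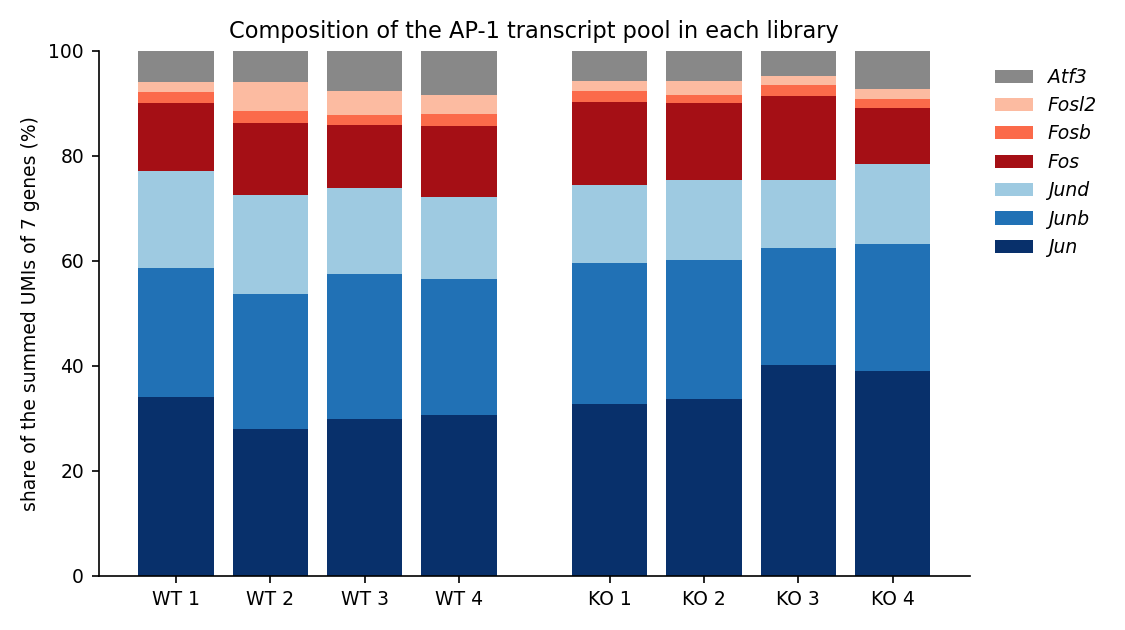
Share of each member in the summed UMIs of the 7 members, in percent, 1 stacked bar per library. Jun is the largest share in all 8 libraries, from 28.0 to 40.1%, and Fosl2 is at 3.66 to 5.54% in WT 2, WT 3 and WT 4 and at 1.70 to 2.60% in the other 5 libraries.

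Libraries of 1 genotype also differed. KO 1 was the highest KO library for Fos, Fosb, Junb and Jund, whereas KO 4 was the lowest for Fos and the highest for Atf3. WT 1 and WT 4 were the higher WT libraries for Fos, Fosb, Jun and Junb. In WT 1, Jun was at its highest and Fosl2 at its lowest among the WT libraries, and KO 3 held the same positions among the KO libraries. The coefficient of variation of CPM between libraries was 10.9% in KO and 22.6% in WT for Jun and 24.5% and 17.6% for Fos, whereas counting error alone gives 1.83% and 2.42% for Jun and 2.95% and 3.71% for Fos. The biological coefficient of variation of the fit was 0.163 for Fos, above 85.7% of tested genes, 0.149 for Jun and 0.133 for Jund, the lowest of the 7. Each member lay above the fitted trend at its own abundance.

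Genes whose level followed Jun or Fos within the genotypes were ranked by Pearson's r of the deviations of log2 CPM from the group mean over 8 libraries, among 9009 other genes, as a description without p. Nearest to Jun were Mapkapk3, a kinase downstream of p38, at r = 0.975, then Atp9b, Plin2, Arnt and Cass4 at 0.968 to 0.961. Nearest to Fos were Arf3 at 0.956, Dnajc25 at 0.951, Gcc1, Tmem143 and Rtl6 (0.948 to 0.944). None of these 10 genes was called between genotypes in edgeR's test, with adjusted p from 0.583 to 0.997. The ranking was not tested against chance, and the values of a library share its depth and preparation.

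Beyond the 7 members, 2 of 18 tested genes of other AP-1 and small Maf bZIP partners were called higher in KO and none lower. The share of all tested genes called higher was 0.177%. This list and those below were chosen with earlier results of these data known, so their counts and medians are descriptions. Nfe2, a bZIP partner of small Maf proteins, rose to 77.3 ± 4.70 CPM in KO from a WT level of 49.2 ± 3.34 CPM (SD, n = 4 each; log2 difference 0.65 ± 0.11 SE, adjusted p = 0.0134, edgeR's quasi-likelihood test). Maff, a small Maf protein, rose from 26.8 ± 7.72 to 49.6 ± 6.78 CPM (log2 difference 0.89 ± 0.18 SE, adjusted p = 0.0368, same test). Fosl1, which encodes the remaining Fos family protein FRA-1, was far lower, at 9.20 ± 3.36 CPM in KO libraries and 4.67 ± 0.940 CPM in WT libraries (SD, n = 4 each), and was not called (adjusted p = 0.229, edgeR). The median log2 difference of the 18 was -0.06, beside 0.00 for all 9016 tested genes. Nfe2 was no longer called without WT 2 or WT 4, and Maff without KO 1, KO 4, WT 2, WT 3 or WT 4.

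None of the 25 tested kinases and adaptors of the MAP kinase route to AP-1 was called, and their median log2 difference was 0.00. Their summed level was 1199 to 1229 CPM in KO libraries and 1161 to 1219 CPM in WT libraries. The lowest p belonged to Rps6ka3, an ERK-activated kinase, with a log2 difference of -0.61 ± 0.21 (SE; adjusted p = 0.281, edgeR). No gene was called among 5 tested SRF, TCF and MEF2 factors, and Srf was at 50.2 CPM in KO libraries and 51.5 CPM in WT libraries.

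Among 9 tested MAP kinase phosphatases, which switch off ERK, p38 and JNK, 2 rose and none fell, with a median log2 difference of 0.40. Over all tested genes 0.177% were called higher and the median log2 difference was -0.002. Dusp2 rose from 209 ± 21.1 to 351.6 ± 38.0 CPM (SD, n = 4 each; log2 difference 0.75 ± 0.11 SE, adjusted p = 0.0099, edgeR). Dusp1 rose from 128 ± 33.4 to 229 ± 25.7 CPM (log2 difference 0.84 ± 0.14 SE, adjusted p = 0.0134, edgeR). Dusp2 was no longer called without WT 2, and Dusp1 without WT 2, WT 3 or WT 4. Dusp5 and Dusp16 did not pass the test, with log2 differences of 0.48 ± 0.15 and -0.53 ± 0.18 (SE). Of 8 tested genes listed for mRNA decay and stability, none was called, and 7 had a difference above 0, beside 49.5% of all tested genes. The list holds factors that act on AU-rich transcripts, such as those of Fos and Jun, and genes of the BTG and TOB families. Zfp36 and Btg2 are also counted among the other immediate early genes below. The lowest p was that of Zfp36, which encodes the decay factor TTP. It was at 122.5 ± 25.9 CPM in KO libraries and 69.5 ± 23.4 CPM in WT libraries (SD, n = 4 each, adjusted p = 0.0712, edgeR).

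Of 23 other immediate early genes tested, 5 rose in KO and none fell, beside 0.177% of all tested genes called higher. A difference above 0 was found in 21, beside 49.5% of all tested genes, and the median log2 difference was 0.45, beside 0.00. Nothing is read from these counts, because the list was chosen with earlier results of these data known. The 5 called genes were Rhob, a small GTPase gene, Dusp1, Egr1, a zinc finger factor induced with Fos, and Klf2 and Klf6. Dusp1 is also one of the listed MAP kinase phosphatases. Rhob had 95.0 ± 11.7 CPM in KO against 49.6 ± 6.09 in WT (SD, n = 4 each; log2 difference 0.94 ± 0.12 SE, adjusted p = 0.00369, edgeR) and stayed called whichever library was left out. Egr1, Klf2 and Klf6 differed by 0.76 ± 0.14, 0.84 ± 0.16 and 0.65 ± 0.13 (log2, SE; adjusted p = 0.0269, 0.027 and 0.033, edgeR) and stayed called in 3, 3 and 2 of 8 fits that left out a library. All 3 were lost without KO 4, WT 2, WT 3 or WT 4, Egr1 and Klf6 also without KO 3, and Klf2 and Klf6 also without KO 1. Without WT 2, the whole table held 1 called gene, Rhob, in place of 19.

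Other bZIP and partner factors gave no call: 0 of 10 tested CREB, C/EBP and related genes and 0 of 9 NFAT and IRF partners. The list of NFAT and IRF partners also holds factors of the RUNX and ETS families. Of 6 tested genes listed for ubiquitin ligases of Jun and Fos proteins, none was called. Nor was any of 9 tested genes known as AP-1 targets called. Hmox1, the inducible haem oxygenase, had the lowest p of these, with a log2 difference of 0.77 ± 0.22 (SE; adjusted p = 0.194, edgeR). At an unadjusted p under 0.05 the fit held 977 of 9016 genes, and DESeq2 called 11 genes of these pathway lists where edgeR called 8.

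**Figure D4:**
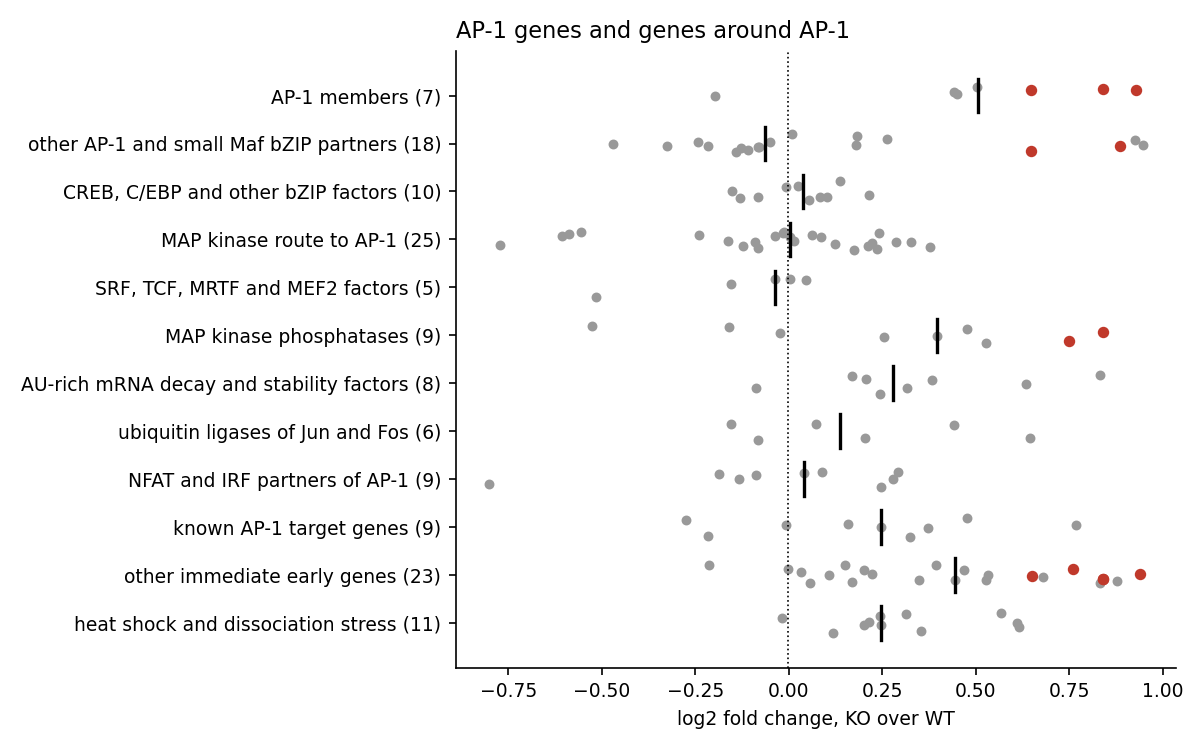
Log2 difference of KO over WT for each tested gene of the lists around AP-1, 1 point per gene, with red points for called genes, grey for the others, and a bar at each list's median. The median stands at 0.45 for other immediate early genes and 0.40 for MAP kinase phosphatases, beside 0.00 for the kinases of the MAP kinase route.

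The summed level of heat shock genes, whose transcripts appear under cell stress that includes dissociation, separated the genotypes by a narrow margin. No gene of the list passed the test. The sum of the 12 listed genes was 37146, 30968, 31423 and 39872 CPM in KO 1 to 4 and 30267, 21292, 24103 and 28223 CPM in WT 1 to 4. The groups did not overlap, but the gap between KO 2 and WT 1 was small beside the SDs of 4370 CPM in KO and 4040 CPM in WT. Of the 11 tested, 10 had a difference above 0, beside 49.5% of all tested genes, and the median log2 difference was 0.25. Hsp90aa1, at 341 CPM in KO libraries against 346 CPM in the WT, was the exception, and the untested Dnaja1 was at 1.84 against 2.77 CPM. Much of the sum came from Hspa1b and Hspa1a, at 9613 and 9072 CPM in KO libraries and 6299 and 6115 CPM in the WT. Hspa1b, an inducible HSP70 gene whose reads can be confused with those of its near copy Hspa1a, had a log2 difference of 0.61 ± 0.16 (SE; adjusted p = 0.153, edgeR). Among the WT libraries the order of the heat shock sum, WT 1, WT 4, WT 3 and WT 2, was also that of the AP-1 sum, whereas among the KO libraries KO 4 had the highest heat shock sum and the third highest AP-1 sum. The part of the heat shock genes in the AP-1 difference was not tested.

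**Figure D5:**
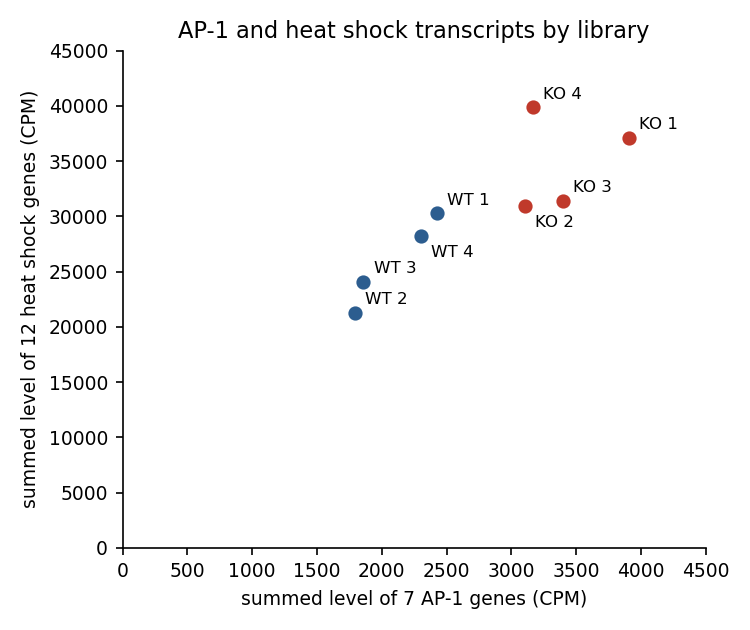
Summed level of 12 heat shock genes (vertical axis) against that of the 7 AP-1 transcripts (horizontal axis), both in CPM, 1 point per library, KO in red and WT in blue. The KO libraries lie at or above 3101 CPM of AP-1 transcripts and 30968 CPM of heat shock transcripts, and the WT libraries lie at or below 2422 and 30267 CPM.

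Marker genes of other cell types differed in both directions. Of 12 tested thymocyte and T cell genes none was called, 9 had a difference below 0 and 3 above, beside 49.5% of all tested genes above 0, and the median log2 difference was -0.48. Cd3d, a chain of the T cell receptor complex, was at 152 ± 35.5 CPM in KO libraries and 252 ± 45.9 CPM in WT libraries (SD, n = 4 each; adjusted p = 0.0521, edgeR), and every KO library lay below the WT libraries. The KO values were also the lower ones, without overlap, for Cd2, a T cell adhesion receptor, Ptcra, the pre-T cell receptor chain, and Cd8b1, a CD8 chain. Cd28, at 8.66 CPM in KO libraries and 13.3 CPM in WT libraries, was separated in the same way. Every KO library lay below every WT library for 208 of all 9016 tested genes. Cd2 was at 6.26 ± 2.13 CPM in KO against 23.7 ± 19.5 in WT, Ptcra at 30.2 ± 2.79 against 47.8 ± 9.84, and Cd8b1 at 42.4 ± 6.44 against 133.9 ± 148.5 CPM (SD, n = 4 each), with log2 differences of -1.87 ± 0.42, -0.66 ± 0.15 and -1.64 ± 0.45 (SE; adjusted p = 0.082, 0.0917 and 0.185, edgeR). Dntt went the other way without passing the test, at 2316 CPM in KO libraries and 1941 CPM in WT libraries. Of 3 tested NK cell and ILC1 genes, Ifng, the cytokine interferon gamma and the only one called, was at 280 ± 41.2 CPM in KO libraries and 177 ± 15 CPM in WT libraries (log2 difference 0.66 ± 0.12 SE, adjusted p = 0.0187, edgeR). The Ifng call was lost without WT 2 or WT 4, and the other fits that left out a library were not examined for it. Gzma, a granzyme gene and the most abundant of the list, was at 505 ± 82.9 CPM against 626 ± 75.7 CPM (KO and WT; log2 difference -0.31 ± 0.13 SE, adjusted p = 0.385, edgeR), and Gzmb at 79.8 ± 19.2 against 67.1 ± 21.9 CPM. The list summed to 866 ± 77.7 CPM in KO libraries and 871 ± 78.0 CPM in WT libraries (SD, n = 4 each). None of the 7 tested ILC3 genes was called, nor was Cd79b of B cells, Cpa3 of mast cells, or any of 3 tested macrophage and dendritic cell genes and 3 tested epithelial and stromal genes. The part of such cells in the AP-1 levels was not tested.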

How the data were processed

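MARS-seq, a 3′ method with UMIs, was applied to poly(A) RNA of ILC2 sorted from thymus in 4 Il25 KO and 4 WT libraries, per the labels' protocols. STAR 2.5.2b, HTSeq, cutadapt, bcl2fastq and DESeq2, with the build mm10, are listed in the submitters' processing notes. Their roles, their settings, the strand and the treatment of reads with several matches are given by no source used here. The authors deposited 1 table of 10913 genes: raw UMI counts, used for all values here, a normalized signal (counts scaled per library), regularized log2 values and log2 fold changes, and p-values, per the file headers.

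In R 4.3.3, counts were filtered with filterByExpr (minimum count 10, 9016 of 10913 genes kept), scaled by TMM and fitted with edgeR 4.0.16's quasi-likelihood test with genotype as the only term, Benjamini-Hochberg adjustment over all tested genes and a threshold of 0.05. Standard errors came from the F statistic. The test was checked on simulated counts. Members' levels were compared within libraries by an exact sign-flip permutation test, and shares of raw UMIs carry Wilson intervals at 95%. For likeness, log2 CPM used a prior count of 2. Promoters were matched by symbol, 7 of 7.

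The members and lists were chosen with earlier results of these data known. Named genes are the 7 members, up to 4 tested genes with the lowest p for each described list, called genes first, and the 5 genes nearest to Jun and to Fos. Prdx2, as an overlapping gene, and Klf6, as a further called gene of its list, are named in addition. So are Gata3, Tcf7, Dntt, Cd28, Btg2, Hsp90aa1 and the untested Icos, Il13, Il4 and Dnaja1, chosen after their values were seen. List genes without a row in the table are not analysed here. Alternatives were other scalings and filters, DESeq2 1.42.0, limma-voom (limma 3.58.1), a replicate block, and leaving out each library. Replicate numbers come from the sample titles and nothing says that they pair libraries.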

Additional observations from a re-analysis of the deposited data

Results flagged for a closer look

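In 3 of 80 groups of 4 libraries examined, 1 library stood apart from the other 3 by more than a test for a single distant value allows, and chance gives this in about 1 group in 20. None of the 7 AP-1 transcripts was among them. The summed thymocyte and T cell markers were at 5780 CPM in WT 1 and at 4445 to 4657 CPM in the other WT libraries. The summed NK cell and ILC1 markers were at 754.5 CPM in WT 1 and at 899.9 to 916.3 CPM in the other WT libraries. The summed NFAT and IRF partners of AP-1, with the RUNX and ETS factors of that list, were at 501.8 CPM in WT 4. They were at 519.7 to 521.8 CPM in the other WT libraries.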

How the results depend on the processing

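The 7 log2 differences kept their sign under the alternatives run. Under other scalings, filters and tests they ran from 0.93 to 0.96 for Jun and from 0.82 to 0.88 for Fos. The order of levels kept its calls when a library was left out. Scaling cannot change a ratio within a library, and other filters and tests were not run for the order. The number of genes called was 19, between 19 and 22 under other scalings, filters and limma-voom, 45 with DESeq2, 60 with the replicate block and 1 to 39 when a library was left out. Pathway list genes called were 8, with 13 under the replicate block and 1 to 12 when a library was left out. The replicate block also called Jund. Libraries of the same number deviated together with r of -0.006 to 0.138. Across the genotypes, libraries numbered 1 and 4 correlated best with their own number, and those numbered 2 and 3 did not. Nothing in the labels pairs the libraries, so the numbers are not taken as pairs. The calls therefore rest on WT 2 and WT 4 in particular, without which 1 and 4 genes were called. With Jund left out of the total, which raises the other shares by construction, the shares were 42.6% in KO and 37.1% in WT for Jun, 29.2% and 31.4% for Junb, 6.92% and 8.43% for Atf3, 2.16% and 2.60% for Fosb, and 15.7% in WT for Fos, and Fos family UMIs per 100 of the other Jun family UMIs were 29.7 and 33.9. Causes of the other changes were not tested. Depth limits Fosb and Fosl2 most, whose counting error was 7.04 to 9.14% of the level per library.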
